A study of Mus musculus with 6 samples.

Results

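The regions described here are the FANTOM enhancer regions that lie outside promoters in an ATAC-seq table of mouse nephron progenitor cells. A region was taken when the deposited annotation gave it the name of a FANTOM enhancer and listed no promoter for it, and each distinct region was counted once. This gave 2541 of 43523 regions, or 5.84%. A further 1660 regions with a FANTOM name were listed as promoters and were not members, and 26885 other non-promoter regions without such a name served for comparison. ATAC-seq uses the transposase Tn5 to insert adapters into open DNA, so the count of a region reflects its accessibility. The cells came from CD1 mice at E14.5, in the middle of kidney development, or on the day of birth, P0, with no other treatment or allele named. Each stage had 3 libraries, and each library came from 50000 cells of 1 litter, whose kidneys were pooled. In both stages the cells were enriched with magnetic beads against Itga8, an integrin on the surface of nephron progenitors.

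Enhancers are stretches of DNA, often far from a gene, that bind transcription factors and raise the transcription of a target gene. Many active enhancers are themselves transcribed in both directions into short, unstable RNAs. The FANTOM consortium mapped such paired transcription across many mouse tissues and cells with CAGE, which sequences the capped 5′ ends of RNAs. A FANTOM name therefore says that a region was transcribed like an enhancer in some sample of that atlas, not that it was active in nephron progenitors.

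Because FANTOM names carry mm9 coordinates while the regions are in mm10, the join was checked first. All 2541 names, 100%, were on the chromosome of their region. For 2467 members, 97.1%, the shift between the mm9 and the region coordinate differed from the median shift of 5 neighbouring members by no more than the length of the region. The median deviation was 204.5 bp, although the shift itself exceeded 10 kb in 2338 members and reached 7.26 Mb. The names thus follow the regions along each chromosome. The members held 2515 distinct names, and 22 names fell in more than 1 region.

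Sequence can be shown for members that hold an annotated transcript start, because RefSeq (GRCm38.p6, the assembly called mm10) gives 300 bases around each start. This applied to 159 members, of which 131 held the start of a long non-coding RNA (lncRNA) and 30 that of a protein-coding gene. The 8 stretches below were chosen after their values were seen, and each lies in a member at a lncRNA start. The first is the window of Gm35028 (chr10:44427939-44428238, minus strand), in a member 7.8 kb from Prdm1 that rose at P0. Its single capital marks the annotated start.
Gm35028: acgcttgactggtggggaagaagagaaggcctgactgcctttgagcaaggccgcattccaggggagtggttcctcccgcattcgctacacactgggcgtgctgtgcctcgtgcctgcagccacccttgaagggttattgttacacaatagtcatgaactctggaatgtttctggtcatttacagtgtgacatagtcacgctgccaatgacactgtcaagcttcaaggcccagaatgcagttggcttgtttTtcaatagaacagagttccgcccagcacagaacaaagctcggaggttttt
Gm34745 (chr12:51157034-51157333, minus strand) lies in the other changed member with a whole window, and its capitals mark the Smad2 match listed by the authors.
Gm34745: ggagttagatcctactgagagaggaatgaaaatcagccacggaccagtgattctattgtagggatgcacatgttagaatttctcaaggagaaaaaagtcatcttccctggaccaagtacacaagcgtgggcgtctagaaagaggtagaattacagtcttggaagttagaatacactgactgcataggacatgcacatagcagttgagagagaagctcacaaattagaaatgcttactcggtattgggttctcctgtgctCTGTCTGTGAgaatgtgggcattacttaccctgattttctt
The other 6 are short stretches whose capitals mark a listed match of a kidney or signalling factor, printed on the strand of that match. They show what a listed match looks like in members that did not pass in the edgeR test used here. Those of Gm39054 (Six2 match, chr7:98815944-98816008, minus strand), Gm40513 (Meis2, chr9:41890538-41890601, plus strand) and Gm39084 (Foxo4, chr7:123098204-123098263, plus strand) lie in members that also hold a VISTA element.
Gm39054: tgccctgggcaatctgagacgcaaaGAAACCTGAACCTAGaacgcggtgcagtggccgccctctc
Gm40513: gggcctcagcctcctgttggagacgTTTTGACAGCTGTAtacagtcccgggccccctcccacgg
Gm39084: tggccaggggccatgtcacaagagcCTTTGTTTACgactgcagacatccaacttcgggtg
The last are those of Gm46609 (Sox9, chr17:87613544-87613605, minus strand), Gm34643 (Jun, chr14:103012653-103012713, minus strand) and Gm51476 (Jun, chr7:35363148-35363208, minus strand).
Gm46609: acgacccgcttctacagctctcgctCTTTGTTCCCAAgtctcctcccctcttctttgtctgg
Gm34643: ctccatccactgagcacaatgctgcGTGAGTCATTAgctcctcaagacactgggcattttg
Gm51476: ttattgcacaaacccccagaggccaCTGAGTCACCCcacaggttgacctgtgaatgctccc
As a check of these positions, the letters TGANTCA, the core bound by Jun and Fos proteins, were found in 84 of 84 listed Junb matches that fell in any RefSeq window. Searched on both strands, the same letters occurred in 7.81% of all such windows. For 3 other factors a smaller share of matches held the letters tried. TGACAG was in 30 of 59 Meis1 matches (19.2% of all windows), TGTTTAC in 17 of 29 Foxa2 matches (3.65%) and TTTGT in 61 of 99 Sox9 matches (47.2%).

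The libraries held 6492996 to 12292629 counts in regions, with P0 replicate 2 the shallowest. Members took 4.33%, 4.82% and 4.71% of the counts in E14.5 replicates 1 to 3 and 4.79%, 4.72% and 5.03% in P0 replicates 1 to 3. The means were 4.62 ± 0.257% and 4.85 ± 0.161% (SD over 3 libraries), and the values of the stages overlapped. As a share of non-promoter counts the order turned, with 11.5 ± 0.477% (SD, n = 3) at E14.5 and 11.1 ± 1.09% (SD, n = 3) at P0. As a check of the cell label, promoter regions were present at 15 of 21 genes of a progenitor list, among them Six2, Cited1, Osr1, Sall1, Wt1, Eya1 and Itga8, but not Pax2, Hoxa11, Hoxd11, Meox1, Fgf9 or Uncx. No promoter region was found at any of 6 erythroid genes, and 4 of 13 immune genes had one (Runx1, Fcgr3, Ikzf1 and Coro1a), but not Ptprc, Csf1r, Cx3cr1 or Spi1. Promoter regions were also present at 10 of 16 stromal, 6 of 12 ureteric and 4 of 11 endothelial genes. The median levels of these 3 lists were 31.99, 38.3 and 24.6 CPM and that of the immune list was 44.3 CPM, against 27.9 CPM for the progenitor list, so promoter accessibility did not single out the progenitor genes. In a mixed isolate, fewer cells of a type and less accessibility per cell cannot be told apart.

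**Figure D1:**
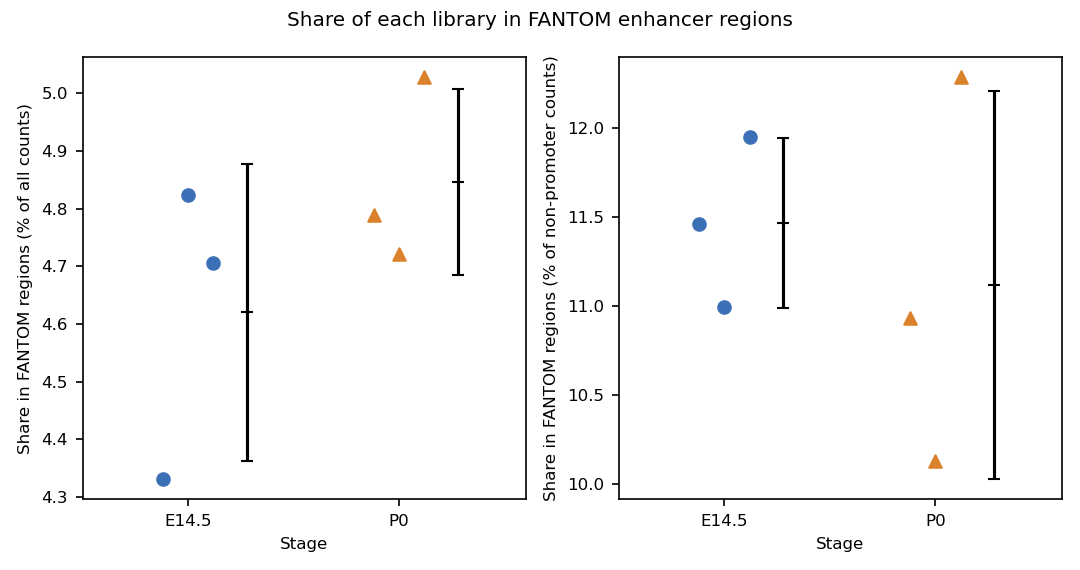
Share of each library's counts that fell in FANTOM enhancer regions outside promoters, in percent of all counts (left) and of non-promoter counts (right), at E14.5 (circles) and P0 (triangles); the bars beside the points are the mean and SD of 3 libraries. The stages overlap in both panels, and the mean is higher at P0 on the left and lower on the right.

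The members were more accessible than other distal regions and nearer to transcript starts. Their median over the 6-library mean was 15.1 CPM (counts scaled to library size with TMM), against 11.3 CPM in other non-promoter regions, and the values of single members ran from 3.33 to 478 CPM. They were 433 to 5835 bp long with a median of 1636 bp, and covered 4.36 Mb. By the deposited annotation 1453 were intergenic, 971 lay in gene bodies outside exons and 117 overlapped an exon. Within 1 kb of a RefSeq gene start lay 407 members, 16.02%, against 5.52% of other non-promoter regions, although none was listed as a promoter. The median distance to a start was 10.3 kb in members and 23.7 kb in the others.

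Elements of the VISTA collection, which are tested for enhancer activity in transgenic mouse embryos, were found in 113 members, 4.45%, and in 140 other non-promoter regions, 0.521%. These 113 had a median of 19.4 CPM, against 15.0 CPM in members without one.

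Few members were called as changed between E14.5 and P0. In edgeR's quasi-likelihood test, with p-values adjusted over all regions by Benjamini-Hochberg and a threshold of 0.05, 81 members passed, 3.19% (95% Wilson interval 2.57% to 3.94%, which treats regions as independent). Of all regions, 4.73% passed, and of other non-promoter regions 6.91%. In the members 46 regions were higher and 35 lower at P0, that is 1.81% and 1.38%, where all regions gave 1.79% and 2.94%. Against all regions the members thus had a smaller share of losses, while their share of gains was near the background. That background includes 14097 promoter regions, of which 0.851% passed, 0.383% higher and 0.468% lower. Of FANTOM regions listed as promoters, 0.602% passed. Of other non-promoter regions, 2.52% were higher and 4.39% lower.

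Since the members held more counts per region, they were also compared at equal levels. When other non-promoter regions were weighted to the members' distribution over 10 classes of mean CPM, 7.52% of them were called, 2.89% higher and 4.63% lower, which is 4.33 percentage points above the members. Weighting by length as well gave 7.82%. The members' share was the smaller one in 10 of 10 classes, at 1.57% to 4.33% against 4.48% to 9.57%. For losses the members lay below in 10 classes and for gains in 8. The number of calls depended on single libraries. Only 4 members passed without P0 replicate 1, 6 without E14.5 replicate 3 and 30 without E14.5 replicate 1, and all regions fell to 1.09%, 0.779% and 2.53%. Without E14.5 replicate 2, 115 passed, with 72 higher and 43 lower, while without E14.5 replicate 1 the split was 10 higher and 20 lower. In each of these fits the members' share stayed below that of other non-promoter regions.

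**Figure D2:**
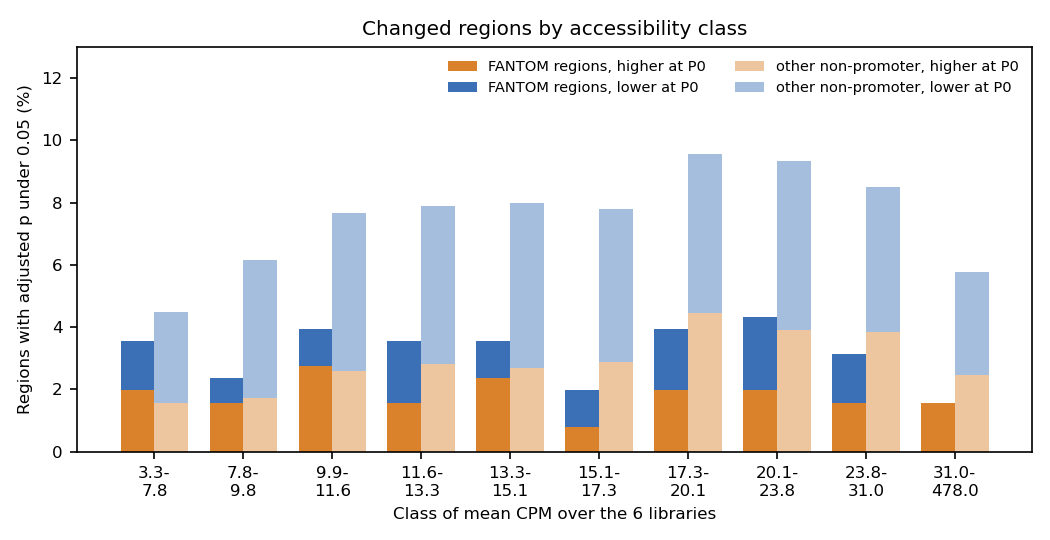
Percentage of FANTOM enhancer regions outside promoters (full colour) and of other non-promoter regions (pale) with an adjusted p under 0.05, in 10 classes of mean CPM, with gains at P0 (orange) stacked on the axis and losses (blue) above them. The members' bars end at 1.57% to 4.33% and the others' at 4.48% to 9.57%.

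The direction of the calls moved with the scaling and with single libraries. Of the members' calls 56.8% were gains, against 36.5% in other non-promoter regions, although the rate of gains itself was lower in members (1.81% against 2.52%). Scaling to total counts gave 53 gains and 24 losses in members, 68.8% gains. A fit of non-promoter regions alone gave 35 gains and 69 losses, 33.7% gains, where other non-promoter regions had 27.2%. That fit also moved the median of the members from 0.03 to -0.07 and that of other non-promoter regions from 0.11 to about 0 on the log2 scale. Losses outnumbered gains in members without E14.5 replicate 1 (10 gains, 20 losses) and without P0 replicate 3 (34 and 45). The majority direction of the members' calls thus did not hold across these fits.

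Over all members, called or not, differences were smaller than in the weighted others. The median size of the log2 fold change was 0.24 in members and 0.30 in the weighted others, and 49 members, 1.93%, differed at least 2-fold, against 5.34%. Of these 49, 39 were among the called members. The signed median was 0.03 in members and 0.10 in the weighted others. This gap in signed medians turned without P0 replicate 2, where members had 0.04 and other non-promoter regions 0.00 (unweighted). At an unadjusted p under 0.05 there were 472 members, 18.6%, against 18.7% of all regions and 23.9% of other non-promoter regions. The libraries of the stages did not overlap in 25.9% of members, against 24.2% of all regions. Members also varied less within a stage, with a median SD of log2(CPM + 1) of 0.236 against 0.274 in the weighted others.

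**Figure D3:**
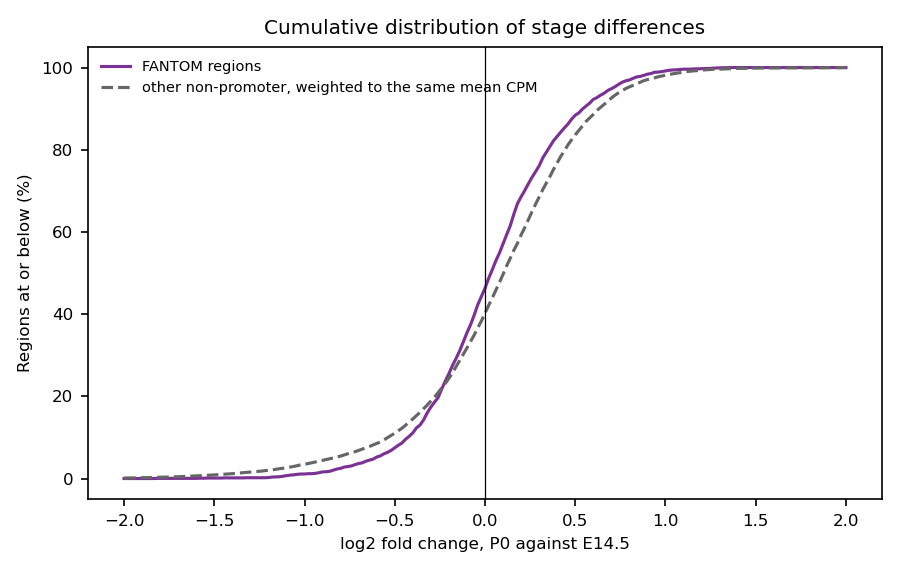
Cumulative percentage of regions at or below each log2 fold change (P0 against E14.5) for FANTOM enhancer regions outside promoters (solid) and for other non-promoter regions weighted to the same mean CPM (dashed). The solid curve is steeper, and 1.93% of members against 5.34% of the weighted others differ at least 2-fold.

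Among the 81 changed members, 80 had libraries that did not overlap between stages, which a call with 3 libraries a stage nearly requires, and 39 changed at least 2-fold, 18 of them upward and 21 downward. Gains ran from 0.70 to 1.35 on the log2 scale and losses from -0.73 to -1.82, with medians of 0.94 and -1.06. By location, 39 of the changed members were intergenic, 40 lay in gene bodies outside exons and 2 overlapped exons. These were 2.68%, 4.12% and 1.71% of the members so located, against 7.40%, 6.49% and 5.28% of other non-promoter regions. The 8 largest changes of each direction follow, with CPM in replicates 1, 2 and 3 of each stage. They were chosen among changed members without overlap, so that their stages lie apart is part of the choice and no further evidence. Nearby genes are named as landmarks, since the data do not tie a region to a target. The short name of a region between genes can be its farther neighbour. Dusp10 lay 569 kb away and Hlx 81.3 kb, Stmn4 196 kb and Adra1a 77.3 kb. Car10 lay 219 kb away and Utp18 36.3 kb, Ajap1 344 kb and A430005L14Rik 129 kb.

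The deepest loss was at chr14:66557487-66557989, between Stmn4, a stathmin that acts on microtubules, and Adra1a, an adrenergic receptor. It had 3.91, 7.97 and 7.24 CPM at E14.5 and 1.25, 1.82 and 2.29 CPM at P0, a log2 fold change of -1.82 (adjusted p = 0.0175, SE 0.40). A larger region in the body of Hs3st2 (chr7:121469005-121470302), a heparan sulfate sulfotransferase gene, fell from 18.4, 21.2 and 23.2 CPM to 6.04, 7.72 and 7.26 CPM. Its log2 fold change was -1.58 (adjusted p = 0.00213, SE 0.22). In both regions every P0 library lay below every E14.5 library. Between Car10, which encodes a carbonic anhydrase-related protein, and Utp18, a ribosome biogenesis gene, the region chr11:93820897-93822914 had 29.5, 23.0 and 37.8 CPM at E14.5 and 10.3, 11.7 and 8.999 CPM at P0. This was a log2 fold change of -1.55 (adjusted p = 0.00248, SE 0.23), and listed matches there included forkhead factors and Sox2. The region chr1:184644541-184645849, between the MAP kinase phosphatase gene Dusp10 and the homeobox gene Hlx, fell from 9.25, 12.6 and 13.9 CPM to 2.60, 6.81 and 3.95 CPM. Its log2 fold change was -1.45 (adjusted p = 0.0228, SE 0.34), and the stages did not overlap in either region. The Hs3st2 and Car10 regions passed under every alternative tried. Without E14.5 replicate 3 the Stmn4 region had an adjusted p of 0.114 and the Dusp10 region of 0.149, and without P0 replicate 1 they had 0.108 and 0.120.

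A further loss lay in the DNA repair gene Xrcc4, at chr13:89853620-89855669, with 14.9, 16.03 and 19.7 CPM at E14.5 and 5.41, 10.1 and 5.05 CPM at P0 (log2 fold change -1.33, adjusted p = 0.0149, SE 0.28). In Zranb3, a gene of replication fork repair, the region chr1:128068966-128069644 fell from 8.78, 8.58 and 14.9 CPM to 5.83, 4.09 and 4.03 CPM (log2 fold change -1.20, adjusted p = 0.0385, SE 0.31). The stages were apart in both. At chr2:12032769-12034769, 71.9 kb from Itga8, the gene of the integrin used for selection, the values were 17.2, 16.03 and 19.6 CPM at E14.5 and 6.25, 6.51 and 10.1 CPM at P0. All P0 libraries were lower, with a log2 fold change of -1.19 (adjusted p = 0.0132, SE 0.25). The Zranb3 and Itga8 regions each held a listed match of Meis1, a homeodomain factor of the kidney stroma. The region chr4:153827757-153828409, between the adherens junction gene Ajap1 and A430005L14Rik, had 6.999, 6.04 and 8.52 CPM at E14.5 and 3.23, 3.33 and 2.92 CPM at P0 (log2 fold change -1.19, adjusted p = 0.0424, SE 0.31), again without overlap. None of these 4 calls held without E14.5 replicate 3, with adjusted p of 0.0949 to 0.273, or without P0 replicate 1, with 0.0785 to 0.159. The Ajap1 call was lost under total-count scaling (0.0531), and the Ajap1 and Zranb3 calls under limma-voom (0.0555 and 0.0533) and without E14.5 replicate 1 (0.114 and 0.0623), P0 replicate 2 (0.0725 and 0.0832) or P0 replicate 3 (0.0719 and 0.0677).

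The strongest gain was at chr2:119262928-119263743, between Spint1, which encodes an epithelial serine protease inhibitor, and Rhov. It rose from 3.32, 3.77 and 5.72 CPM to 11.7, 11.8 and 9.16 CPM, a log2 fold change of 1.35 (adjusted p = 0.0184, SE 0.30). Between Abca1, the cholesterol exporter, and Slc44a1, a choline transporter, the region chr4:53277448-53278670 had 9.85, 11.6 and 11.0 CPM at E14.5 and 26.4, 31.9 and 22.6 CPM at P0. This gave a log2 fold change of 1.31 (adjusted p = 0.00346, SE 0.21). Every P0 library lay above every E14.5 library in both. The region chr6:6053685-6055109 in Slc25a13, a mitochondrial carrier gene, rose from 6.52, 4.73 and 2.69 CPM to 10.8, 9.99 and 13.1 CPM (log2 fold change 1.29, adjusted p = 0.0307, SE 0.32). At chr16:57419343-57420207, within both Cmss1 and Filip1l, values rose from 6.999, 6.57 and 4.32 CPM to 14.16, 12.4 and 16.4 CPM (log2 fold change 1.27, adjusted p = 0.0129, SE 0.26). Neither region overlapped between stages. The Abca1 call held under every alternative tried. Without P0 replicate 1 the Spint1, Slc25a13 and Cmss1 regions had adjusted p of 0.109, 0.120 and 0.0688. Without E14.5 replicate 3 the Slc25a13 and Cmss1 regions had 0.161 and 0.0901, and without E14.5 replicate 1 the Spint1 region had 0.0755. The Slc25a13 call was also lost without E14.5 replicate 2 (0.0539) and P0 replicate 3 (0.0634).

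Between Fbxl7, an F-box gene, and Ank, which acts in pyrophosphate export, the region chr15:27405028-27406508 went from 9.85, 8.23 and 8.52 CPM to 21.2, 23.5 and 19.1 CPM. Its log2 fold change was 1.26 (adjusted p = 0.00441, SE 0.21), and the call held under every alternative tried. Within Ostf1, the region chr19:18598826-18599735 rose from 4.15, 3.68 and 4.67 CPM to 11.9, 8.47 and 9.39 CPM (log2 fold change 1.26, adjusted p = 0.0210, SE 0.28). Both had stages that lay apart. In Tbc1d4, a regulator of glucose transporter traffic, chr14:101492402-101492898 rose from 2.73, 4.55 and 3.15 CPM to 8.64, 8.47 and 7.26 CPM (log2 fold change 1.20, adjusted p = 0.0390, SE 0.31). Between Ggta1 and Dab2ip, chr2:35495954-35497183 rose from 4.86, 5.34 and 3.85 CPM to 9.79, 10.4 and 11.2 CPM (log2 fold change 1.16, adjusted p = 0.0242, SE 0.27). These were again without overlap. The Ostf1, Tbc1d4 and Ggta1 calls were lost without E14.5 replicate 1 (adjusted p 0.0691 to 0.150), E14.5 replicate 3 (0.0869 to 0.182) and P0 replicate 1 (0.103 to 0.186). The Tbc1d4 call was also lost without P0 replicate 2 (0.0792), and the Ggta1 call without P0 replicate 3 (0.0510).

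**Figure D4:**
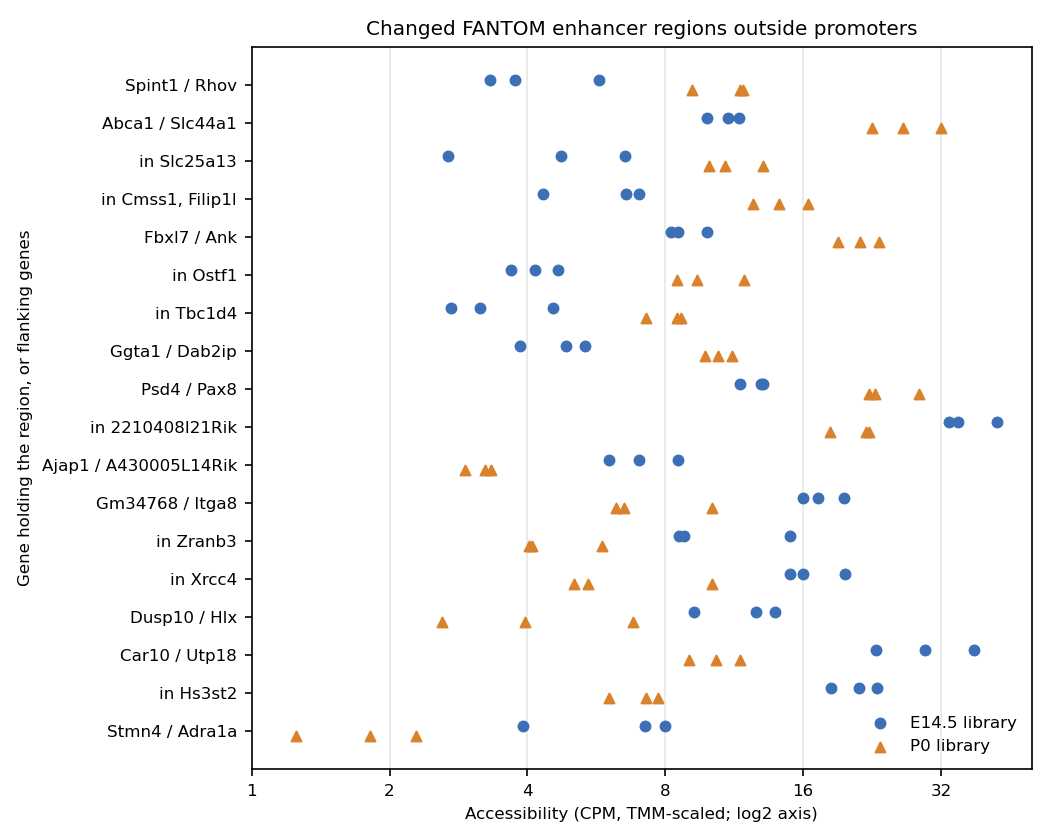
Accessibility in CPM (log2 axis) of the 8 largest gains, the 8 largest losses, the region near Pax8 and the changed VISTA region in 2210408I21Rik, with 1 point per library at E14.5 (circles) and P0 (triangles). The stages lie apart in each row, which for the gains and losses the choice of regions required.

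Listed kidney genes had few members nearby. Within the body or 50 kb of 21 progenitor genes lay 2 members, and 0 of them passed in edgeR's test, with 1 at an unadjusted p under 0.05 and 0 passing under DESeq2 or limma-voom. The member in Robo2, a receptor of Slit ligands, had 17.7, 16.03 and 18.7 CPM at E14.5 and 21.97, 22.7 and 26.5 CPM at P0 (log2 fold change 0.45, adjusted p = 0.216, SE 0.19). Near Uncx, a homeobox gene, the log2 fold change was 0.37 (adjusted p = 0.424, SE 0.23), with stages that overlapped. Within 100 kb the list had 3 members, of which 1 passed. That was the region 71.9 kb from Itga8 described above, which was lower at P0 (log2 fold change -1.19).

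Around 24 nephron differentiation genes lay 8 members, of which 1 was higher and 0 lower. The higher one, chr2:24416364-24418243, lay 2.3 kb from Pax8, a transcription factor of the early nephron epithelium. It had 13.05, 11.6 and 12.96 CPM at E14.5 and 22.9, 22.2 and 28.7 CPM at P0, without overlap (log2 fold change 0.98, adjusted p = 0.0126, SE 0.20). Without E14.5 replicate 3 its adjusted p was 0.0738, and without P0 replicate 1 it was 0.0609. A second member, 44.6 kb from Pax8, had a log2 fold change of -0.25 (adjusted p = 0.534, SE 0.20), so the members near this gene lay on different sides of 0. In Jag1, which encodes a Notch ligand, a member had 41.5, 44.6 and 38.1 CPM at E14.5 and 57.1, 49.8 and 63.6 CPM at P0 (log2 fold change 0.46, adjusted p = 0.205, SE 0.19). Members near Hnf4a, Emx2, Hes1, Hes5 and Podxl ranged from -0.33 to 0.25, and the stages overlapped in each.

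Of 8 developmental timing genes, Mycn and Igf2bp1 had a member each, and neither passed in edgeR's test. The member near Mycn, a growth-promoting transcription factor, had 20.3, 19.1 and 14.7 CPM at E14.5 and 30.6, 24.7 and 33.7 CPM at P0 (log2 fold change 0.72, adjusted p = 0.0585, SE 0.20). Its P0 libraries were all higher, and it passed under DESeq2 (0.0377), under total-count scaling (0.0496) and without P0 replicate 2 (0.0384). In Igf2bp1, an RNA-binding protein gene, the log2 fold change was -0.26 (adjusted p = 0.550, SE 0.20).

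For genes of other kidney and blood cells the counts were equally small. Stromal genes had 5 members, ureteric genes 6, endothelial genes 1, immune genes 8 and erythroid genes 0, and 0 of them passed in edgeR's test. At an unadjusted p under 0.05 there were 3 of the 8 immune members, too few to set against the 18.7% of all regions. DESeq2 and limma-voom called 0 of the members in these lists. The fit of non-promoter regions alone called 1, the member near Ikzf1, a lymphoid transcription factor gene (adjusted p = 0.0460). The ureteric set included the VISTA region shown above, 17.7 kb from Wnt11, with 38.2, 31.1 and 38.5 CPM at E14.5 and 29.8, 22.9 and 29.5 CPM at P0 (log2 fold change -0.39, adjusted p = 0.309, SE 0.19). Its P0 libraries all lay below those of E14.5. Within 50 kb, summed over the 8 immune members, the level was 112 to 128 CPM at E14.5 and 95.1 to 101 CPM at P0. The 6 ureteric members summed to 106 to 119 CPM and 94.4 to 97.8 CPM, also without overlap. Stromal sums (90.6 to 109 CPM, then 83.2 to 91.9 CPM) and the endothelial member overlapped between stages. The sums of the progenitor (26.3 to 31.3 CPM, then 34.5 to 41.1 CPM) and nephron differentiation members (139.96 to 168 CPM, then 173 to 189 CPM) were higher at P0 in every library, as were those of the 2 developmental timing members (30.6 to 37.0 CPM, then 38.9 to 46.1 CPM). Of single regions in the whole series, 24.2% did not overlap between stages, and no such share was taken for sums. Some of the patterns in the sums depended on the window. The stromal sums, which overlapped at 50 kb, lay apart at 100 kb (122.2 to 139 CPM, then 113 to 121.6 CPM). At 100 kb the stages overlapped for the progenitor (43.5 to 50.9 CPM, then 40.7 to 51.2 CPM) and nephron differentiation sums (255 to 317 CPM, then 282 to 333 CPM). At 10 kb they overlapped for the ureteric (21.3 to 25.6 CPM, then 19.4 to 23.9 CPM) and immune sums (40.9 to 43.4 CPM, then 42.2 to 43.3 CPM). The stages stayed apart for the ureteric (144 to 194 CPM, then 125 to 143 CPM) and immune sums (203 to 214 CPM, then 179 to 198 CPM) at 100 kb, and for the progenitor and nephron differentiation sums (92.5 to 101 CPM, then 120 to 137.9 CPM for the latter) at 10 kb. For the developmental timing genes the order turned at 10 kb, with 1 member (14.7 to 16.7 CPM, then 12.4 to 14.225 CPM), and the stages overlapped at 100 kb (71.5 to 72.3 CPM, then 71.6 to 89.7 CPM). The part of other cell types in the changes above was not tested.

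Of the members with a VISTA element, 1 of 113 passed, 0.885%, against 6 of 140 in other non-promoter regions. It was chr13:77546418-77549028 (element_881), within the lncRNA gene 2210408I21Rik, with 33.3, 34.9 and 42.4 CPM at E14.5 and 21.97, 22.2 and 18.3 CPM at P0. The stages did not overlap, and the log2 fold change was -0.83 (adjusted p = 0.0238, SE 0.19). It had a listed Meis2 match. The adjusted p was 0.162 without E14.5 replicate 3, 0.114 without P0 replicate 1 and 0.0516 without P0 replicate 3.

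Another 4 changed members were chosen after their values were seen, for the genes beside them. A region in Cubn, the endocytic receptor of proximal tubule cells (chr2:13398081-13399919), had 28.7, 39.8 and 28.8 CPM at E14.5 and 61.7, 52.5 and 50.9 CPM at P0 (log2 fold change 0.76, adjusted p = 0.0450, SE 0.20). The Gm35028 region near Prdm1, a transcriptional repressor gene, had 20.4, 15.5 and 12.96 CPM at E14.5 and 35.8, 30.7 and 26.4 CPM at P0 (log2 fold change 0.93, adjusted p = 0.0233, SE 0.22). Both lay wholly higher at P0. The Gm34745 region rose from 9.96, 12.2 and 8.52 CPM to 21.7, 25.7 and 13.9 CPM (log2 fold change 0.98, adjusted p = 0.0388, SE 0.25). At chr10:115663838-115665688, 76.1 kb from Lgr5, a stem cell receptor gene, values rose from 13.2, 18.6 and 15.9 CPM to 25.4, 28.1 and 27.5 CPM (log2 fold change 0.76, adjusted p = 0.0393, SE 0.20). Stages were apart in both. All 4 calls were lost without E14.5 replicate 3 (adjusted p 0.167 to 0.270) and without P0 replicate 1 (0.147 to 0.279). Those of the Cubn, Gm34745 and Lgr5 regions were lost without E14.5 replicate 1 as well (0.116 to 0.199), that near Prdm1 without E14.5 replicate 2 (0.0515), those of Gm34745 and Lgr5 without P0 replicate 2 (0.128 and 0.0790) and that near Lgr5 without P0 replicate 3 (0.0684). In the fit of non-promoter regions alone the Cubn and Lgr5 calls were lost (0.0811 and 0.0541), and under limma-voom that of Gm34745 (0.0654).

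The 5 members with the highest mean CPM varied widely between libraries of 1 stage. Whether counts of this size reflect accessibility was not tested. At the highest, chr4:3089513-3091456, the values were 549, 326 and 552 CPM at E14.5 and 431, 689 and 320 CPM at P0, with a spread as wide within a stage as between stages (adjusted p = 0.990). The second, chr17:13550706-13553173, had 287, 380 and 483 CPM at E14.5 and 228, 289 and 180 CPM at P0 (log2 fold change -0.72, adjusted p = 0.130, SE 0.26). It passed under DESeq2 (adjusted p = 0.0262) and without P0 replicate 2 (0.0171). The others, chr18:3004130-3006615, chr12:74803879-74804509 and chr11:3168414-3169742 in Sfi1, had 81.4 to 460 CPM and adjusted p of 0.850 to 0.962. P0 replicate 2 was the highest P0 library in all 5, and P0 replicate 3 the lowest.

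Transcription factor matches were taken as listed, and their score threshold is not given in the sources used here. At least 1 listed match was found in 67.1% of members, against 61.0% of other non-promoter regions weighted to the same mean CPM and length. Maz, a zinc finger factor of G-rich sites, had matches in 26.1% of members against 13.6%. Sall factors had 20.6% against 11.96%, and E2F factors of the cell cycle 13.5% against 6.69%. Forkhead matches were less common in members, at 22.4% against 25.9%, as were Meis at 5.94% against 7.74% and Pax at 2.95% against 4.92%. Six2, the factor that maintains nephron progenitors, had a listed match in 92 members, 3.62%, near the 3.40% of the others. Of these members 1 rose and 1 fell, 2.17% against 3.23% of members without a match, and in other non-promoter regions the shares were 4.37% and 6.99%. Matches are a description of letters, and binding was not measured.

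**Figure D5:**
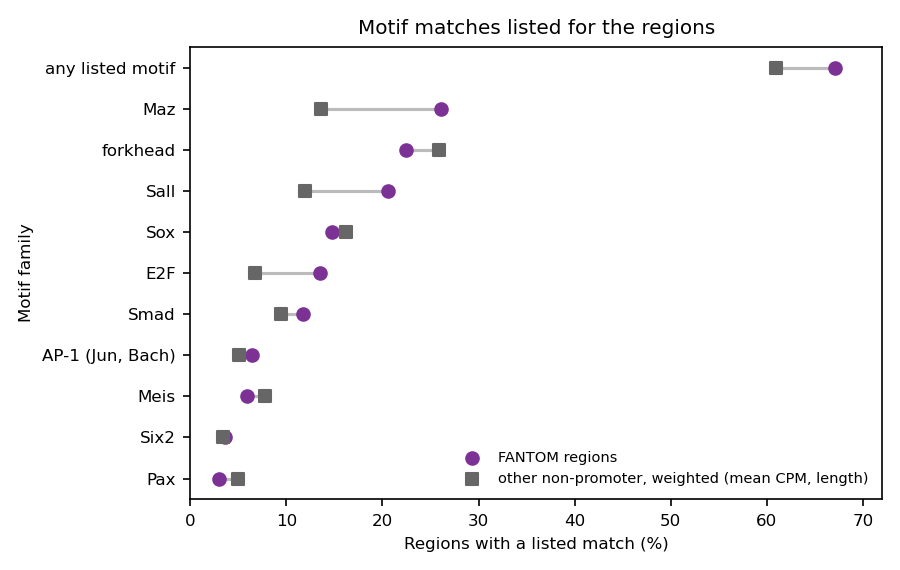
Percentage of regions with at least 1 listed match per motif family, for FANTOM enhancer regions outside promoters (circles) and other non-promoter regions weighted to the same mean CPM and length (squares). Maz, Sall and E2F lie further right in members, and forkhead, Sox, Meis and Pax in the others.

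The number of calls in each family was small. Of 570 members with a forkhead match, 3.16% were called, near the 3.20% of members without one, while in other non-promoter regions the shares were 9.40% and 6.13%. Whether this difference between the classes exceeds chance was not tested. Of 342 members with an E2F match 1.17% were called, against 3.50% without, and in other non-promoter regions the shares were 4.87% and 7.03%. Among the 151 members with a Meis match, 7 changed, 4.64%, against 3.10% of members without one, and in other non-promoter regions the shares were 7.83% and 6.84%. Of the 7, 6 were losses, including those in Zranb3, near Itga8 and at the VISTA element, where 35 of all 81 changed members and 1180 of 1858 changed other non-promoter regions were losses. Direction by Meis match was not tested. AP-1 matches were listed in 163 members, of which 3 rose and 2 fell, 3.07% against 3.20% of members without one, where other non-promoter regions had 7.63% and 6.87%.

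Members stood mostly alone. With neighbours joined at gaps of up to 25 kb, a distance chosen after the data were seen, 2086 had no partner, and 7 runs held 4 or more members, 32 in all, of which 2 were called, too few to set against the 3.19% of all members. The largest run held 8 members over 105.9 kb at Vps13d, a lipid transfer protein gene. Its log2 fold changes ran from -0.90 to 0.47, and 1 member passed, with an adjusted p of 0.0182.

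In the authors' deposited table, 79 members, 3.11%, were labelled as opening at P0 and 28, 1.10%, as closing, where 2.86% and 2.48% of all regions had these labels. Of other non-promoter regions, 3.95% were labelled as opening and 3.45% as closing, so the members had the smaller share of both. These labels rest on the same libraries and are no independent evidence. Of the 79 and 28 labelled members, 45 and 23 were called here in the same direction. The thresholds differ, since labelled regions in the authors' deposited table had adjusted p up to 0.0999. At an adjusted p under 0.05 the authors' deposited table held 16 members and 607 regions in all.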

How the data were processed

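Nephron progenitors of 3 E14.5 and 3 P0 litters were profiled by ATAC-seq. Per the file headers, the authors deposited whole-number counts per region and library, with 45489 rows, of which 1966 repeated a region and were dropped. mm10 is named per the submitters' processing notes. The aligner, peak caller, counting rule, Tn5 shift and duplicate removal are not given in the sources used here, and how they affect the counts was not tested. The authors deposited log2 fold changes and p-values of their own, from a model not described, and only their opening and closing labels and adjusted p-values were used, to describe the members. The deposited columns that link enhancers to target genes were not used, since only 0.719% of 18786 regions had a listed gene on their own chromosome.

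All regions were fitted with edgeR 4.0.16 (R 4.3.3), with TMM scaling, filterByExpr, which removed 0 regions, and its quasi-likelihood test for stage, without covariates. Benjamini-Hochberg adjustment ran over 43523 regions. CPM used TMM-scaled library sizes. It was tested on data simulated for the P0 against E14.5 comparison over 43523 regions, where 103 of 200 regions changed 2-fold were recovered with 8 false calls. Each library pooled 1 litter, so p-values measure the spread between litters. Intervals cover counting error only. Other non-promoter regions were weighted by deciles of the members' mean CPM, with no test, because members and lists were chosen with earlier results of these data known. Regions named were the 8 largest non-overlapping changes in each direction, changed members within 50 kb of progenitor, differentiation or timing genes, changed VISTA members and the 5 highest in CPM. Alternatives were DESeq2 1.42.0, limma-voom (limma 3.58.1), other scalings, filters and thresholds, a replicate block, fewer regions and leaving out each library. Gene spans and sequences came from RefSeq (GRCm38.p6). Sequence for regions without a RefSeq start window is not printed.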

Additional observations from a re-analysis of the deposited data

How the results depend on the processing

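The members' share of calls lay below that of CPM-weighted other non-promoter regions in all 26 settings. The difference of -4.33 points became -1.77 at an adjusted p under 0.01 and ran from -7.26 to -1.02 with 1 library left out. The 81 changed members (46 higher, 35 lower) became 124 under DESeq2, with 61 lower, 7 (2 and 5) at an adjusted p under 0.01 and 181 (102 and 79) at 0.1. Leaving out 1 library gave 4 to 115 changed, 2 to 72 higher and 2 to 45 lower. All regions fitted went from 2059 calls to 2778 under DESeq2. With non-promoter regions alone, 69 members were lower and the median log2 fold change turned from 0.03 to -0.069. Total-count scaling moved it to 0.087. Left-out libraries gave -0.0061 (without P0 replicate 3) to 0.048. The share of counts differed by 0.226 points between stages, 0.081 to 0.328 with 1 library left out, and turned to -0.351 of non-promoter counts. Within 100 kb of listed genes 2 members passed, against 1 within 50 kb. With the replicate number as a block, 61 members passed, 29 higher and 32 lower, and 54 of them also passed without it. Same-numbered libraries correlated at 0.067, -0.140 and 0.077 in their deviations from the stage means, so the numbers are not taken to pair the samples. Of the 18 named calls, 4 were lost under the block (Slc25a13 0.0556, Tbc1d4 0.0604, Zranb3 0.0673 and Ajap1 0.0790), as was that in Cubn (0.0586) chosen after its values were seen, and of the 18, 2 were lost under limma-voom and 1 under total-count scaling, and 4 held in each of 15 fits. In members, 1 region had under 10 counts in a library. The simulation gave each region the spread of the fitted trend, not its own, and recovered 103 of 200 2-fold changes. Those 200 were drawn from all 43523 regions, so this is not a rate for members.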
